A study of Mus musculus with 8 samples.

Results

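Imprinted genes outside the Dlk1-Dio3 region were followed across induced pluripotent stem (iPS) cells and embryonic stem (ES) cells of the mouse. The members were 41 genes chosen by symbol, and every probe set whose platform annotation gives such a symbol was taken. Of these 41 genes, 39 had a probe set, with 100 probe sets in all. Of the 39, 38 had a probe set annotated to that gene alone, out of 18193 such genes on the array. A signal filter was passed by 35 of them, out of 14004 genes tested.

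The samples were 3 integration-free iPS cell lines, labelled 1, 2 and 3, and a normal ES cell line as control, each measured on 2 Affymetrix 3' expression arrays of total RNA. iPS cells come from somatic cells brought back to pluripotency, and integration-free means that no reprogramming vector was left in the genome. Cells of both kinds were C57BL/6 and male, came from passage 7 to 10 and were kept in N2B27 medium with mouse LIF. The labels give each line by number alone, without its cell of origin or how many clones it holds, and no label states that the arrays named as biological replicates came from separate cultures. The p-values thus measure only the spread between arrays, which may be technical. The number of arrays, 2 for each line, limits the precision.

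An imprinted gene is transcribed mainly from the copy inherited from the mother or mainly from that inherited from the father. The choice is set by DNA methylation laid down in the germ line at differentially methylated regions and kept through the divisions of the embryo. Imprinted genes lie in clusters, and many act on fetal and placental growth. Paternally expressed members such as Igf2 and Peg3 mostly promote growth or maternal care, and maternally expressed members such as Igf2r, Grb10, Cdkn1c and Phlda2 mostly restrain it. In pluripotent cells the methylation of these regions can be lost or gained in culture, and it is used as a measure of how far an iPS line resembles an ES line. Arrays report the summed RNA of both copies, so allelic expression was not measured here. The grouping by expressed allele below is the one known from mouse tissues.

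Signals were used on the linear MAS5 scale as deposited, and differences are on the log2(signal + 12) scale, which understates changes of dim genes. Differences are given with their standard error (SE) from limma, and a gene was called where the p-value adjusted over all 14004 genes was under 0.05. Between 58.06% and 61.38% of probe sets on an array exceeded the low-signal floor of 37.1. All 10 pluripotency markers examined passed the filter, and in the mean of the iPS lines 1 of them, Utf1, was lower (log2 difference -0.43, SE 0.12, adjusted p 0.0479). By line, 0 were lower in line 1, 2 in line 2 and 1 in line 3, against 1.12%, 10.6% and 2.57% of all genes. In each line 0 were higher, and the lowest log2 difference in line 2 was -0.86. Line 2 stood apart in several respects. The 3'/5' ratio of actin, a control for RNA integrity, was 1.74 and 1.79 on its arrays, against a highest value of 1.62 elsewhere. The same ratio of Gapdh was 0.915 and 0.946 in line 2 and overlapped with 0.935 and 0.886 in line 3. The summed signal of 8 trophoblast markers lay between 4864 and 5360 in line 2, against 2958 to 2971 in ES cells. In line 2 against ES cells 2 of these markers, Krt7 and Tfap2c, were higher and 1, Plac1, was lower, while the defining markers Elf5 and Tpbpa did not pass the filter. The summed signal of 6 fibroblast markers was 406 to 466 in line 2, against 187 to 258 in ES cells. Of these 6, Pdgfrb alone was called higher, and Col1a1, Col3a1, Postn, Twist2 and Fap of the same list did not pass the filter. Of 10 primitive endoderm markers 0 were called in line 2 against ES cells by limma, with Afp and Ttr below the filter. An unadjusted p under 0.05 was reached by 1 of the 10, against 5192 of all 14004 genes. Of 7 neural markers 2 were higher in line 1, 2 in line 2 and 3 in line 3 than in ES cells, against 1.21%, 16.1% and 1.58% of all genes, with median log2 differences of 0.76, -0.01 and 0.68. Their summed signal was 9888 to 10395 in line 1, 9047 to 9773 in line 2 and 10423 to 10508 in line 3. In ES cells it was 8084 to 8520, so line 2 lay above ES cells and below both other iPS lines. Of these 7 markers, 2 were lower in line 2 than in line 1, against 9.52% of all genes. Likewise 2 were lower in line 2 than in line 3, against 12.1%. In such bulk RNA, fewer cells of a type and less RNA per cell cannot be told apart, and the part of these markers or of RNA integrity in the results below was not tested.

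Averaged over the 3 iPS lines and set against ES cells, 8 of the 35 tested members were called, which is 22.9% against 7.30% of all genes tested. Phlda2, Peg3, Igf2, Gnas and Grb10 were higher, which is 5 members against a background of 4.27% of genes called higher. Zdbf2, Mcts2 and Plagl1 were lower, which is 3 members against a background of 3.03% called lower. The median log2 difference of the 35 members was 0.06, against 0.02 over all genes. Both parental classes were among the called members. Among 13 maternally expressed members 2 were higher and 0 lower. Among 18 paternally expressed members 2 were higher and 3 lower, and among 4 with allele use that differs by isoform 1 was higher and 0 were lower. With an unadjusted p under 0.05 as the limit, these classes held 7, 8 and 1 members, against 3010 of all 14004 genes. In 7 members each of the 6 iPS arrays exceeded both ES arrays, against 7.17% of all genes, and in 3 each was under both, against 5.75%. Of the 8 called members, Igf2 alone had iPS and ES arrays that overlapped.

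**Figure D1:**
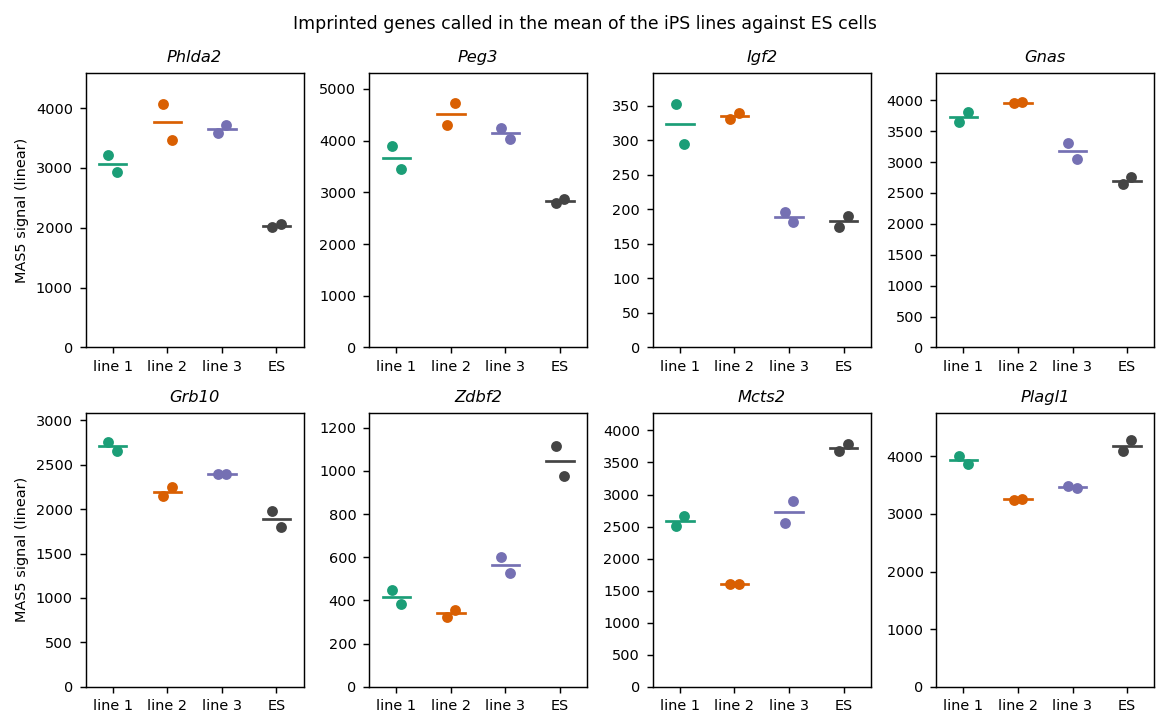
MAS5 signal on a linear axis for the 8 members called when the iPS lines were averaged and set against ES cells. Points are single arrays, bars are the mean of the 2 arrays of a line, and columns are iPS lines 1, 2 and 3 and ES cells. Zdbf2 and Mcts2 lie below ES cells on all 6 iPS arrays, Phlda2, Peg3, Gnas and Grb10 lie above, and Igf2 of line 3 lies at the ES level.

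Zdbf2, a zinc finger gene expressed from the paternal copy and known for its part in postnatal growth, had the largest difference among the called members. Its signal was 449 and 384 in line 1, 325 and 357 in line 2 and 599.9 and 527 in line 3, against 1115 and 975 in ES cells. Every iPS array was below both ES arrays, with line 3 the closest to them. Averaged over the lines the log2 difference was -1.25 (SE 0.10, adjusted p 1.14e-05), that is 2.39-fold lower. By line it was -1.30 (SE 0.12, adjusted p 0.000131) in line 1, -1.58 (SE 0.12, adjusted p 2.29e-06) in line 2 and -0.88 (SE 0.12, adjusted p 0.00191) in line 3. The nearest measured genes on chromosome 1 were Gpr1, at a log2 difference of 0.13, and Adam23, at -0.58 (SE 0.26, adjusted p 0.213), and neither was called.

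Mcts2, a retrogene of paternal expression within H13 on chromosome 2, showed the next strongest decrease. It read 2509 and 2662 in line 1, 1609 and 1600.3 in line 2 and 2563 and 2903 in line 3, against 3686 and 3781 in ES cells. All iPS arrays were below the ES arrays, and line 2 was below the other iPS lines. On the log2 scale the difference was -0.73 (SE 0.06, adjusted p 1.58e-05) in the mean and reached -1.21 (SE 0.07, adjusted p 3.59e-07) in line 2. In line 1 it was -0.53 (SE 0.07, adjusted p 0.00223) and in line 3 it was -0.45 (SE 0.07, adjusted p 0.00493). The call in line 3 was lost without line 3 replicate 1 (-0.36, adjusted p 0.0572) and without ES replicate 2 (-0.43, adjusted p 0.0577). H13, the host gene that codes for signal peptide peptidase, was at 0.27 (SE 0.12, adjusted p 0.237), and Id1 on the other side was at 0.00. The parent gene of the retrogene, Mcts1, which was chosen after its values were seen, was at 0.00 in the mean of the lines and at -0.20 (SE 0.06, adjusted p 0.0282) in line 2. Whether the Mcts2 probe set also binds Mcts1 RNA was not tested.

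Plagl1 (Zac1), a zinc finger transcription factor of paternal expression that acts on other growth genes, had a small decrease. Its signal was 3999 and 3868 in line 1, 3248 and 3261 in line 2 and 3489 and 3454 in line 3, against 4099 and 4275 in ES cells. All 6 iPS arrays were below the ES arrays, and those of line 1 were close to them. In log2 units it differed by -0.24 (SE 0.05, adjusted p 0.00998) in the mean, -0.36 (SE 0.06, adjusted p 0.000773) in line 2, -0.27 (SE 0.06, adjusted p 0.0263) in line 3 and -0.09 (SE 0.06, adjusted p 0.567) in line 1. Without ES replicate 1 the adjusted p of the mean was 0.0738 and without ES replicate 2 it was 0.144, and the line 3 call was lost without any ES or line 3 array (adjusted p 0.106 to 0.180). This value comes from an _x_at probe set, a type that can bind related transcripts. The other probe sets of Plagl1 gave -0.15 (SE 0.21) and 0.53 (SE 0.68), and with _x_at and _s_at sets left out the line 2 difference turned to 0.27 (SE 0.27, adjusted p 0.512).

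Phlda2, a maternally expressed gene of the Kcnq1 cluster on chromosome 7 that restrains growth of the placenta, was higher in all 3 lines. It read 3217 and 2925 in line 1, 4062 and 3469 in line 2 and 3591 and 3723 in line 3, against 2004 and 2068 in ES cells. No iPS array came near the ES arrays. The log2 difference was 0.77 (SE 0.07, adjusted p 2.22e-05), that is 1.70-fold higher, with 0.59 (SE 0.08, adjusted p 0.00208), 0.88 (SE 0.08, adjusted p 8.88e-06) and 0.84 (SE 0.08, adjusted p 0.000216) in lines 1, 2 and 3. Its neighbours were Slc22a18, at -0.67 (SE 0.29, adjusted p 0.208), and Nap1l4, at 0.06 (SE 0.05, adjusted p 0.556). Neither of them passed the test.

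Peg3, a paternally expressed zinc finger gene on chromosome 7 known from mouse mutants for fetal growth and maternal behaviour, was also higher in every line. Its signal was 3892 and 3449 in line 1, 4311 and 4725 in line 2 and 4254 and 4033 in line 3, against 2798 and 2862 in ES cells. The groups did not overlap. The log2 difference was 0.53 (SE 0.06, adjusted p 0.000198) in the mean, 0.37 (SE 0.07, adjusted p 0.0207) in line 1, 0.67 (SE 0.07, adjusted p 3.74e-05) in line 2 and 0.55 (SE 0.07, adjusted p 0.00163) in line 3. The line 1 call was lost without either ES array, with adjusted p 0.163 without replicate 1 and 0.113 without replicate 2, and without line 1 replicate 1 (0.28, adjusted p 0.187). Of its 3 probe sets past the filter 2 were called, and the third stood at 0.42 (SE 0.13, adjusted p 0.0955). Usp29, which shares the Peg3 promoter region and is read in the opposite direction, was dim and stood at -0.44 (SE 0.55, adjusted p 0.707).

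Igf2, the paternally expressed fetal growth factor of chromosome 7, was higher in lines 1 and 2 and at the ES level in line 3. It read 352 and 294 in line 1, 330.2 and 339.7 in line 2 and 197 and 182 in line 3, against 175 and 191 in ES cells. Line 3 overlapped with ES cells, and the other lines did not. The log2 difference was 0.78 (SE 0.15, adjusted p 0.0176) in line 1, 0.83 (SE 0.15, adjusted p 0.00138) in line 2 and 0.05 (SE 0.15, adjusted p 0.905) in line 3, and their mean was 0.55 (SE 0.12, adjusted p 0.0166). The call of the mean was lost without either ES array (adjusted p 0.169 without replicate 1 and 0.0749 without replicate 2) and without line 2 (0.41, adjusted p 0.155). The call in line 1 was lost without line 1 replicate 1 (0.65, adjusted p 0.169) or either ES array (adjusted p 0.134 and 0.0719). H19, the maternally expressed RNA that shares the control region with Igf2, had only a probe set that is also annotated to the microRNA Mir675. That probe set read 704 and 605 in line 1, 533 and 596 in line 2 and 545 and 475 in line 3, against 517 and 691 in ES cells. The arrays overlapped, and its log2 difference of -0.06 (SE 0.12, adjusted p 0.839) in the mean was not called. The neighbour Mrpl23, a gene of the mitochondrial ribosome, was higher by 0.27 (SE 0.06, adjusted p 0.0186), and Ins2 stood at 0.15 (SE 0.48, adjusted p 0.894).

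Grb10, an adaptor that restrains signalling from the insulin and IGF receptors and is maternally expressed in most tissues, was higher in all 3 lines. Its signal was 2760 and 2656 in line 1, 2145 and 2249 in line 2 and 2396 and 2396 in line 3, against 1975 and 1802 in ES cells. All iPS arrays lay above the ES arrays, with line 1 highest. Grb10 differed from ES cells by 0.36 (SE 0.06, adjusted p 0.00252) in the mean, 0.52 (SE 0.07, adjusted p 0.00198) in line 1, 0.22 (SE 0.07, adjusted p 0.0384) in line 2 and 0.34 (SE 0.07, adjusted p 0.0178) in line 3. Without ES replicate 2 the mean was 0.29 with adjusted p 0.0676, the line 2 value 0.15 with adjusted p 0.263 and the line 3 value 0.28 with adjusted p 0.165. The line 2 call was also lost without any array of lines 2 or 3 (adjusted p 0.0525 to 0.163), and the line 3 call without either array of line 3 (adjusted p 0.0930 and 0.103). Centring each array on its median also ended the line 2 call (0.13, adjusted p 0.323). Of its 3 probe sets past the filter 1 was called, and the others stood at 0.03 (SE 0.24) and 0.38 (SE 0.20). On chromosome 11 its measured neighbours were 1700042O10Rik, which was lower (-0.76, SE 0.15, adjusted p 0.00879), and LOC102631979, at 0.70 (SE 0.23, adjusted p 0.0933).

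Gnas codes for the stimulatory G protein alpha subunit and for further products that start from imprinted upstream promoters, so its parental class depends on the isoform. It read 3643 and 3801 in line 1, 3949.7 and 3967 in line 2 and 3304 and 3042 in line 3, against 2648 and 2752 in ES cells. All iPS arrays were above the ES arrays, and line 3 was the closest. Gnas differed from ES cells by 0.41 (SE 0.05, adjusted p 0.000498) in the mean, 0.46 (SE 0.07, adjusted p 0.00231) in line 1, 0.55 (SE 0.07, adjusted p 6.73e-05) in line 2 and 0.23 (SE 0.07, adjusted p 0.0756) in line 3. The probe set is an _s_at set, and the remaining Gnas sets stood at 0.21 (SE 0.34) and 0.68 (SE 0.39). With _x_at and _s_at sets left out the mean was 0.21 (adjusted p 0.793). The neighbours Gnasas1 and Nelfcd were at 0.00 (SE 0.45) and 0.03 (SE 0.09).

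Promoter sequences are shown for members with a call in the mean of the lines, or a called log2 difference of at least 1 in another comparison, that hold a motif tied to imprinting. ZFP57, a zinc finger protein that keeps methylation on imprinted regions, binds the core motif TGCCGC when it is methylated. RefSeq windows of GRCm38.p6 reach from 250 bases before a gene's start to 50 bases after it, and 33 of the 41 members had at least 1 window. H19, Cdkn1c, Kcnq1, Peg10, Sgce, Impact, Trappc9 and Kcnk9 had none. The motif TGCCGC or its reverse complement GCGGCA, searched on both strands, was found in a window of 12 of the 33 members (36.4%), against 13.1% of 27025 genes. A gene can have several windows, and by window the motif was in 13 of 47 member windows, against 11.6% of all 32851 windows. The median count of CpG dinucleotides was 17 in member windows, against 7 over all windows. Among genes with a window of at least 10 CpG, the motif was found for 11 of 29 members (37.9%), against 24% of 12388 genes. A match describes letters in these windows and is not a site of binding, and the build of the array annotation is not stated in the files, so the windows were joined to the arrays by symbol. Of the 13 members with such a call, 6 had a window with the motif. The first of these windows with the most matches is shown for each, 5' to 3' along the gene's strand, and capitals mark TGCCGC or GCGGCA.
Grb10, chr11:12037371-12037670, minus strand: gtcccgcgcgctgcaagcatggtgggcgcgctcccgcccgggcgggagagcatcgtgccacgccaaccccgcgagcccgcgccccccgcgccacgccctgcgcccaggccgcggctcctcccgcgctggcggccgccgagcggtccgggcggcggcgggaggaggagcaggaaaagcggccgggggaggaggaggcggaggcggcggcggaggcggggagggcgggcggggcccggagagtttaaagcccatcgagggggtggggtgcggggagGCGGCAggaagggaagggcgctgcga
Igf2, chr7:142661222-142661521, minus strand: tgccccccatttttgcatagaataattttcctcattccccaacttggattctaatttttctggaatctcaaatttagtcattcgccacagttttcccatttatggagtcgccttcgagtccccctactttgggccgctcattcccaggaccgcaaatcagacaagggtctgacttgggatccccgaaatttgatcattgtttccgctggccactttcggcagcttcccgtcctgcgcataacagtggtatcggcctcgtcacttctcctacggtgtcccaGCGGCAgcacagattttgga
Mcts2, chr2:152686898-152687197, plus strand: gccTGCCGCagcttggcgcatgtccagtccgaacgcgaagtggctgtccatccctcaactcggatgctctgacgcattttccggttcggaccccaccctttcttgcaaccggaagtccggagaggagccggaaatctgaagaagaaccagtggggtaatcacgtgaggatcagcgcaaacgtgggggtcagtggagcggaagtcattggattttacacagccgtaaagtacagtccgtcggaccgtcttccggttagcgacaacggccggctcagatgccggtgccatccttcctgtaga
Mest, chr6:30737800-30738099, plus strand: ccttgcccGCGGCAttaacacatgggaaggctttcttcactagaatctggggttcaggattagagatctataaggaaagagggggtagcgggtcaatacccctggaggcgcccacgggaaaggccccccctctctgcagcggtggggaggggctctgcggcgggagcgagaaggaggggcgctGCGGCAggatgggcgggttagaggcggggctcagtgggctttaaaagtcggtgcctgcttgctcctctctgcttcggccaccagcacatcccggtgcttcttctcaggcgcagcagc
Plagl1, chr10:13090582-13090881, plus strand: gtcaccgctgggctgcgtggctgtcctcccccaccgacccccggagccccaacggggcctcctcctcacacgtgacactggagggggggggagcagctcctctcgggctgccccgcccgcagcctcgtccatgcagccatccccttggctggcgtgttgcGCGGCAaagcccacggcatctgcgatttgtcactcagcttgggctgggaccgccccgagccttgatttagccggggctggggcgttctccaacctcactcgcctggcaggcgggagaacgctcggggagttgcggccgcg
Zdbf2, chr1:63200108-63200407, plus strand: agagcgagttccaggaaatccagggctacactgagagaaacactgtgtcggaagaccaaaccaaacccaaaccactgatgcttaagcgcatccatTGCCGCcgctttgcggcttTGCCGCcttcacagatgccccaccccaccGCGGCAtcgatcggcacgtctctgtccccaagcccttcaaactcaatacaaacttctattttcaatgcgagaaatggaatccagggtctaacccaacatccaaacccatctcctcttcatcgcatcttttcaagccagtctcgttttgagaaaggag
Zdbf2 held 3 matches and Mest 2, and the other windows held 1 each. Of 11 tested members with the motif 5 were called in the mean of the lines, and of 19 with a window and no motif 3 were called. Of the 5 others, which include Impact, 0 were called by limma. At an unadjusted p under 0.05 these counts were 7, 8 and 1, against 3010 of all 14004 genes. Over all genes tested, 8.01% of those with the motif, 7.1% of those with a window and no motif and 7.29% of those without a window were called. The members' counts are a description, without a test. The other tested members with the motif were Commd1, Copg2, Nap1l5, Nnat and Snrpn, along with Mest. Phlda2, Peg3 and Gnas, which were called, had windows without it.

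Seen line by line, the members were called in different numbers against the same pair of ES arrays. In line 1 against ES cells 8 of 35 members were called, 5 higher and 3 lower, which is 22.9% against 2.34% of all genes. For line 2 and ES cells 15 were called, 10 higher and 5 lower, which is 42.9% against 26.7% of all genes. In line 3 against ES cells 7 were called, 4 higher and 3 lower, which is 20% against 4.15% of all genes. The medians of the members were 0.06, 0.20 and -0.03 on the log2 scale in lines 1, 2 and 3, against 0.01, 0.07 and -0.01 over all genes. The 3 comparisons share the ES arrays and are not independent of each other. In each line's own test Phlda2, Peg3 and Grb10 were higher in all 3 lines and Zdbf2 and Mcts2 were lower in all 3. By the same tests 19 members were called in none. The shares of all genes called in all 3 lines or in none were not counted, so these counts have no background.

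**Figure D2:**
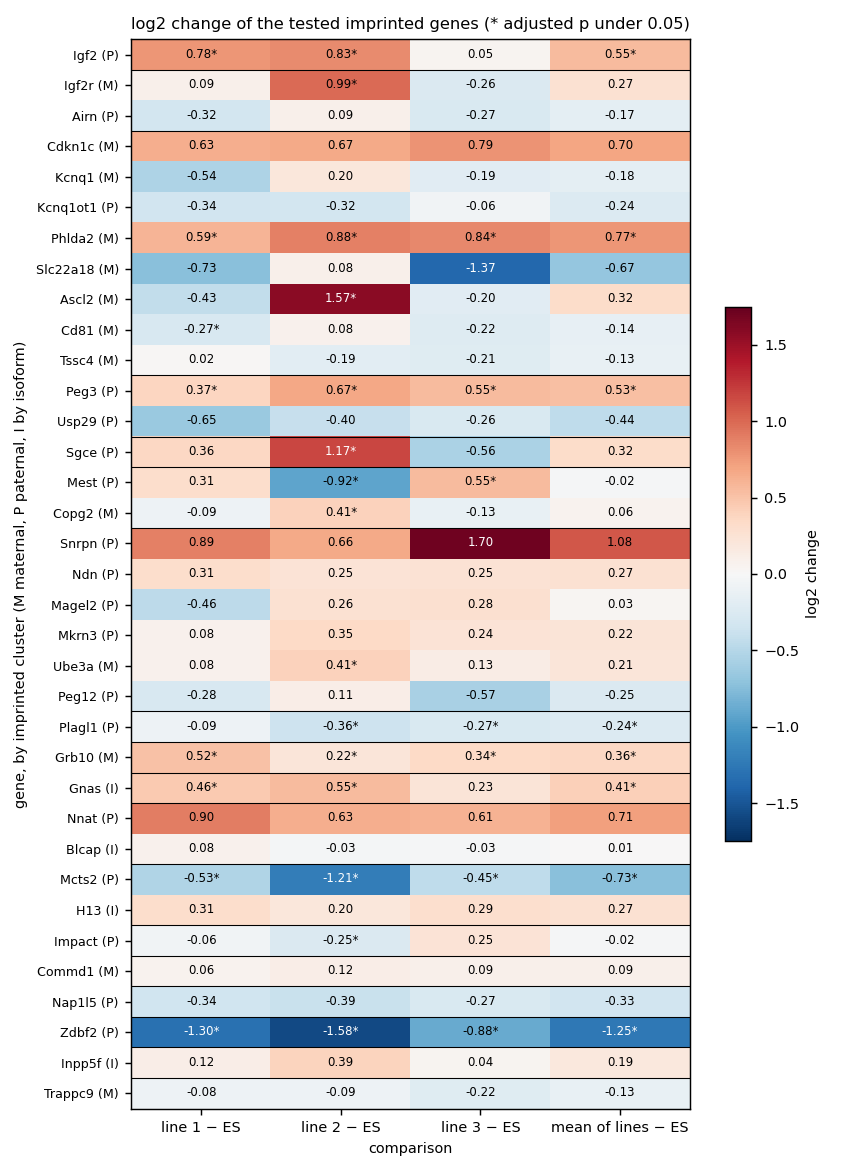
Log2 difference of each of the 35 tested members, in rows by imprinted cluster, for iPS lines 1, 2 and 3 and their mean against ES cells. Asterisks mark an adjusted p under 0.05. The widest contrast between lines is in Ascl2, at 1.57 in line 2 and -0.43 in line 1. The Snrpn values rest on a dim probe set whose ES arrays are both under the floor, so they are no measured fold, and none was called.

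The parental classes were also counted line by line. Of 13 maternally expressed members 6 were higher and 0 lower in line 2, with 16.1% of all genes higher and 10.6% lower. Taking an unadjusted p under 0.05 gave 7 of the 13, against 5192 of all 14004 genes. Centring each array on its median left 4 of the 6 called, without Grb10 and Copg2. Of 18 paternally expressed members 3 were higher and 5 lower there. In line 1 the maternally expressed members had 2 higher and 1 lower and the paternally expressed ones 2 higher and 2 lower, where 1.21% of all genes were higher and 1.12% lower. In line 3 they had 2 higher and 0 lower, and 2 higher and 3 lower, where 1.58% of all genes were higher and 2.57% lower. The median log2 difference of the maternally expressed members was 0.02 in line 1, 0.22 in line 2 and -0.19 in line 3. For the paternally expressed members it was -0.08, 0.10 and 0.00 in the same lines. The difference between the classes was not tested.

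**Figure D3:**
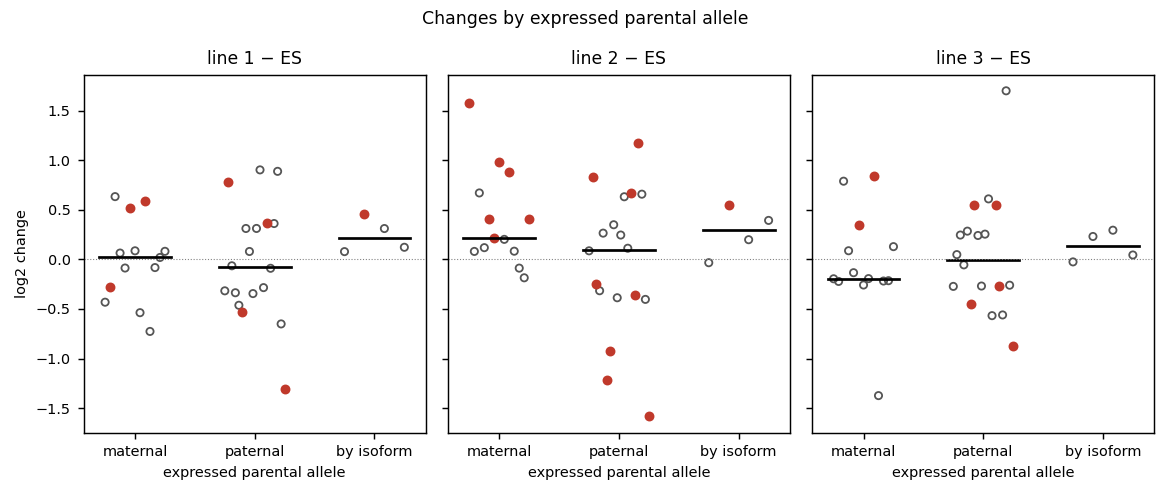
Log2 difference from ES cells of each tested member by expressed parental allele, in iPS lines 1, 2 and 3. Filled red points passed an adjusted p under 0.05, open points did not, and bars are medians. In line 2 the 6 called maternally expressed members are all above 0, and 5 of the 8 called paternally expressed members are below 0.

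Among the 3 iPS lines and the ES line, 17 of the 35 members differed by limma's F test, which is 48.6% against 30.7% of all genes. In line 2 against line 1, 12 members were called, against 23.3% of all genes. Of these, 8 were higher, against 13.8% of genes, and 4 were lower, against 9.52%. In line 2 against line 3, 13 were called, which is 37.1%, a share near the 31.2% of all genes. Of these, 9 were higher, against 19% of genes, and 4 were lower, against 12.1%. In line 3 against line 1, 2 were called, against 1.39% of all genes: Impact was higher, against 0.350% of genes, and Igf2 was lower, against 1.04%. Centring each array on its median moved the median of all genes by -0.12 for line 2 against line 1 and by -0.13 for line 2 against line 3. After centring the members called were 3 higher and 6 lower in the comparison of line 2 with line 1. In that of line 2 with line 3 they were 6 higher and 5 lower. The shares of all genes above are those before centring. Those after it were not counted, so the centred counts have no background. In the first pair Ascl2, Igf2r and Copg2 stayed higher, while the calls of Sgce, Cd81, Ube3a, Peg3 and Phlda2 were lost and Impact and Zdbf2 were gained as lower. In the second, Cd81, Ube3a and Gnas were lost and Grb10 was gained as lower.

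Mest, a paternally expressed gene of the hydrolase fold on chromosome 6, had the smallest adjusted p between lines among the members. Its signal was 635 and 679 in line 2 and 1932 and 1765 in line 3, with 1597 and 1528 in line 1, against 1277 and 1237 in ES cells. Line 2 was below ES cells on both arrays and lines 1 and 3 were above on all of theirs. The log2 difference from ES cells was -0.92 (SE 0.08, adjusted p 6.54e-06) in line 2, 0.55 (SE 0.08, adjusted p 0.0027) in line 3 and 0.31 (SE 0.08, adjusted p 0.0813) in line 1. Between lines it was -1.48 (SE 0.08, adjusted p 1.3e-07) in line 2 against line 3 and -1.24 (SE 0.08, adjusted p 1.94e-06) in line 2 against line 1. The mean of the lines was -0.02 (adjusted p 0.900), and with line 2 left out it was 0.43 (SE 0.07, adjusted p 0.00445). Copg2, a maternally expressed coatomer subunit gene that lies tail to tail with Mest, was higher in line 2, with signals of 1441 and 1393 against 868 and 1159.5 in line 1, 968 and 973 in line 3 and 1063 and 1071 in ES cells. The difference between line 2 and ES cells was 0.41 (SE 0.11, adjusted p 0.0187), and both line 2 arrays were above all others. After centring that difference was not called (0.32, adjusted p 0.0699).

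Ascl2, a maternally expressed basic helix-loop-helix factor that the spongiotrophoblast of the mouse placenta requires, was higher in line 2. It read 277 and 295 in line 2, against 46.9 and 81.1 in line 1, 82.8 and 68.2 in line 3 and 84.4 and 91.4 in ES cells. Both line 2 arrays were far above every other array. Lines 1 and 3 overlapped with each other, and all their arrays were below both ES arrays, without a call. Line 2 differed by 1.57 (SE 0.26, adjusted p 0.000777) from ES cells, 2.01 (SE 0.26, adjusted p 0.000202) from line 1 and 1.77 (SE 0.26, adjusted p 0.00025) from line 3. Of the 8 tested trophoblast markers, Krt7 (1.87, SE 0.16, adjusted p 4.28e-06) and Tfap2c (1.03, SE 0.11, adjusted p 3.6e-05) were higher in line 2 than in ES cells, Plac1 was lower (-1.36) and 5 were not called. Elf5 and Tpbpa did not pass the filter. The markers' part in this result was not tested.

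Igf2r, the receptor that clears IGF2 and is maternally expressed from mouse chromosome 17, was higher in line 2 by 0.99 (SE 0.10, adjusted p 1.91e-05) than in ES cells. It read 1576 and 1378 in line 2, against 793 and 776 in line 1, 656 and 577 in line 3 and 718 and 759 in ES cells. Line 2 did not overlap with any other line, and it exceeded line 1 by 0.90 (SE 0.10, adjusted p 6.59e-05) and line 3 by 1.24 (SE 0.10, adjusted p 2.3e-06). Airn, the paternally expressed antisense RNA that silences Igf2r in cis, was dim, at 57.6 and 46.8 in line 2 and 43.3 and 53.6 in ES cells. Its difference of 0.09 (SE 0.38, adjusted p 0.905) in line 2 did not pass the test.

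Sgce, the paternally expressed epsilon-sarcoglycan, followed the same order. It read 245 and 210.2 in line 2, 117 and 131 in line 1 and 74.0 and 48.0 in line 3, against 97.2 and 90.8 in ES cells. Line 2 was highest, line 3 lowest, and the groups did not overlap. Its log2 difference was 1.17 (SE 0.24, adjusted p 0.00307) in line 2 against ES cells, 1.73 (SE 0.24, adjusted p 0.000156) in line 2 against line 3 and 0.81 (SE 0.24, adjusted p 0.0279) in line 2 against line 1. The difference from line 1 lost its call without any 1 of the arrays of these lines, at adjusted p between 0.0718 and 0.167, and on centring (0.69, adjusted p 0.0670). Peg10, the partner of Sgce at the shared promoter region, did not pass the filter, with signals between 14.5 and 40.6.

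Slc22a18, a maternally expressed transporter gene next to Phlda2, was dim. Its signals were 84.8 and 71.8 in line 2, 17.1 and 25.1 in line 3 and 36.0 and 43.1 in line 1, against 68.2 and 78.2 in ES cells. Both arrays of line 3 were under the floor of 37.1, so line 2 was at least 2.10-fold higher than line 3 (adjusted p 0.00808), taking the geometric mean of line 2 over that floor. The call was lost without line 2 replicate 1 (1.35, adjusted p 0.0636). A second, dimmer probe set of Slc22a18 stood at 0.33 (SE 0.51, adjusted p 0.701) in line 2 against line 3, and averaging the sets ended the call (0.89, adjusted p 0.104). In the mean of the lines the second set was at 1.06 (SE 0.41) and the set used at -0.67 (SE 0.29).

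**Figure D4:**
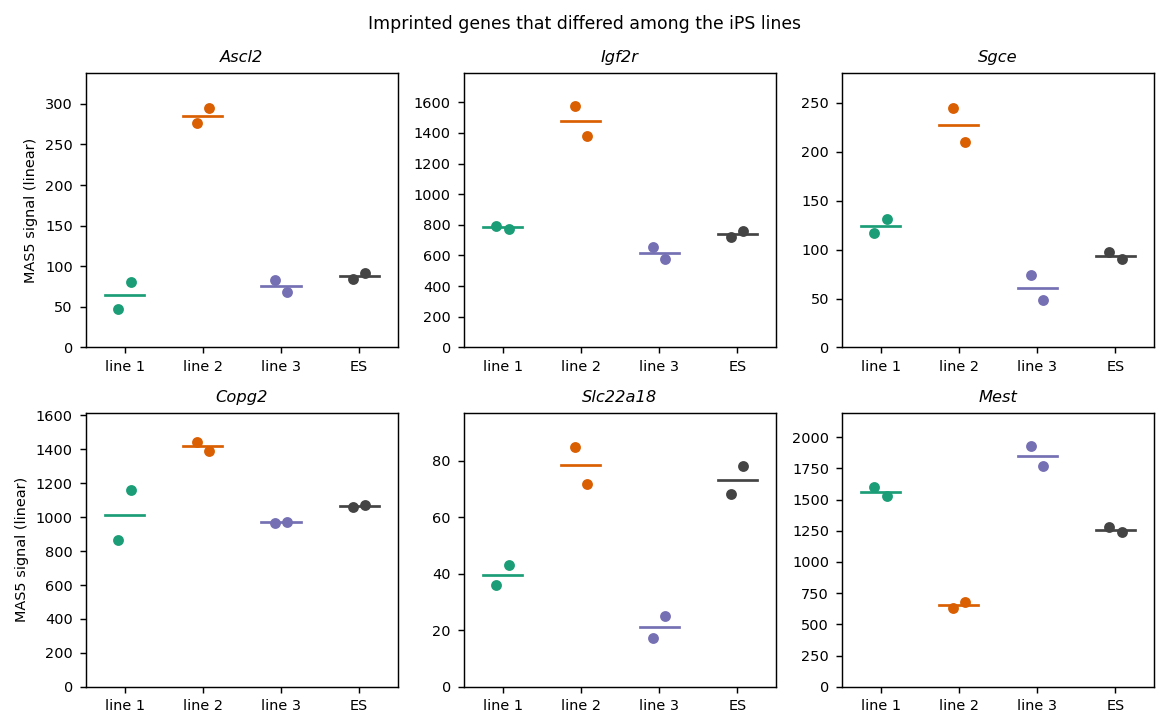
MAS5 signal on a linear axis for 6 members that differed among the iPS lines, drawn as in the plot of the 8 called members. Line 2 is the highest of the lines in Ascl2, Igf2r, Sgce, Copg2 and Slc22a18 and the lowest in Mest.

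The remaining calls were small. Cd81, a tetraspanin of the Kcnq1 cluster, was lower in line 1 than in ES cells (log2 difference -0.27, SE 0.06, adjusted p 0.0287). Ube3a, a ubiquitin ligase that is maternally expressed in neurons, was higher in line 2 (0.41, SE 0.07, adjusted p 0.00135). Impact, a paternally expressed regulator of translation, was lower in line 2 (-0.25, SE 0.07, adjusted p 0.015). These differences are each under 0.5 on the log2 scale, and in Cd81 and Ube3a line 2 lay above lines 1 and 3 as well. After centring, Cd81 in line 1 (-0.24, adjusted p 0.201) and the differences of Cd81 and Ube3a between line 2 and the other iPS lines (adjusted p 0.0598 to 0.288) were not called.

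The other tested members, among them growth regulators and most of the Snrpn cluster, had no call against ES cells. Cdkn1c, a cyclin-dependent kinase inhibitor, stood at 0.70 (SE 0.22, adjusted p 0.0840) in the mean, with signals between 153 and 243 in iPS cells and of 156 and 87.1 in ES cells. The iPS and ES arrays of Cdkn1c overlapped. Nnat (neuronatin) read between 75.7 and 123 on the iPS arrays, against 53.7 and 49.9 in ES cells, and all iPS arrays were above at 0.71 (SE 0.23, adjusted p 0.0840). Ndn (necdin) also had all iPS arrays above the ES arrays, at 0.27 (SE 0.11, adjusted p 0.170). In the Snrpn cluster 0 of 6 members passed limma's test in the mean of the lines. An unadjusted p under 0.05 was reached by 3 of the 6, against 3010 of all 14004 genes. Ube3a of this cluster was called in line 2, as given above. Snrpn itself had a dim probe set of its own, with both ES arrays (5.86 and 18.0) under the floor and no call (adjusted p 0.151 in the mean). Of 5 sets past the filter shared by Snurf and Snrpn, 4 brighter ones stood between -0.05 and 0.03 in the mean, and a dimmer _x_at set was lower in line 2 (-1.58, SE 0.27, adjusted p 0.00137). Those shared sets came from a fit of all probe sets with a symbol, an alternative added after seeing the data. Kcnq1ot1, the paternal RNA that silences the Kcnq1 cluster, stood at -0.24 (SE 0.13, adjusted p 0.309). Slc22a18, at -0.67 in the mean, had no call against ES cells either on the probe set used. Its second set was called higher in line 2 (1.63, SE 0.51, adjusted p 0.0363). Both ES arrays of that set were under the floor, so the value is no measured fold. In line 3 the second set stood at 1.31 (adjusted p 0.230), against -1.37 (adjusted p 0.0542) for the set used. The others were Airn, Kcnq1, Tssc4, Usp29, Magel2, Mkrn3, Peg12, Blcap, H13, Commd1, Nap1l5, Inpp5f and Trappc9, with log2 differences of the mean between -0.44 and 0.27. Zim1 and Rasgrf1 did not pass the filter, with signals between 3.11 and 27.9 and between 1.04 and 53.5. Zrsr1 and Kcnk9 had no probe set with their symbol.

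**Figure D5:**
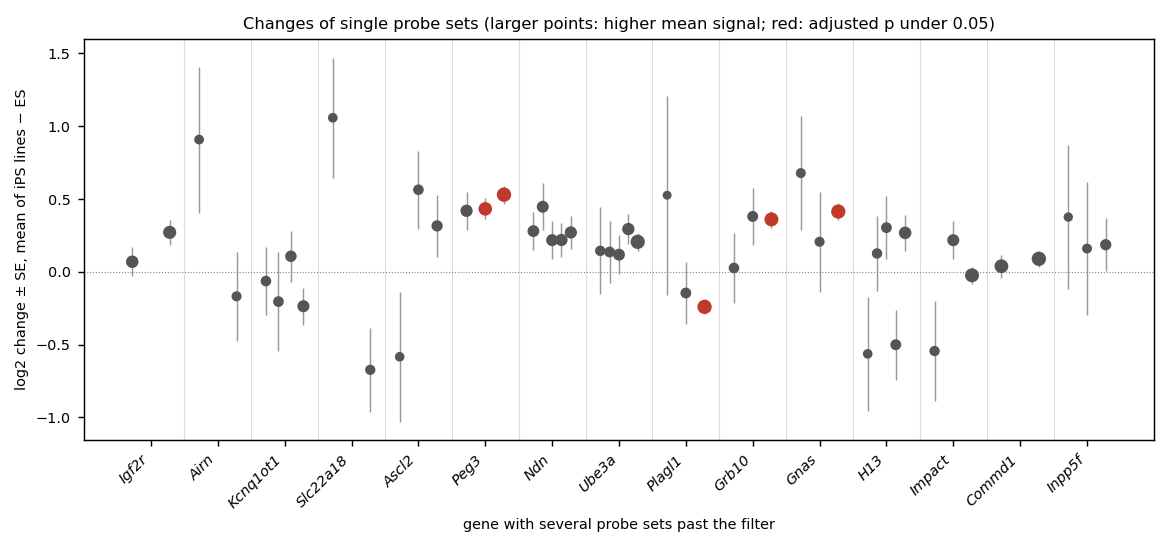
Log2 difference of the mean of the iPS lines from ES cells for each of the 48 probe sets past the filter of the 15 members that have several, with bars of 1 SE. Points are ordered by signal within a gene, and red marks an adjusted p under 0.05. Slc22a18, Plagl1, H13, Airn, Ascl2, Kcnq1ot1 and Impact have sets on both sides of 0.

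Over all member probe sets with 1 symbol, 9 of 68 past the filter were called in the mean of the lines, 6 higher and 3 lower, against 4.83% of 25733 probe sets. Ndn, which has 5 sets past the filter, had them all between 0.22 and 0.45 without a call.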

How the data were processed

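Total RNA of 3 mouse iPS lines and 1 ES line was measured on 8 Affymetrix arrays. The authors deposited 1 linear intensity per probe set and array. MAS5 is named as the tool per the submitters' processing notes. Its version, scaling target and detection calls and the build of the annotation are not given in the sources used. Signals were used as deposited: the mean after trimming 2% at each end was 500.004 on every array. Of 45101 probe sets 64 were controls, 34945 had 1 gene symbol, 932 several and 9160 none.

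For each signal log2(signal + 12) was computed, with 12 set from the 20th percentile over all arrays. A probe set was kept if it exceeded 37.1, the 40th percentile, on at least 2 arrays, and the kept 1-symbol set with the highest mean stood for its gene, which gave 14004 genes. limma 3.58.1 in R 4.3.3 fitted a group-means model over all 8 arrays with an intensity trend (4 residual degrees of freedom, 12.3 after moderation at the median). Tests were two-sided with Benjamini-Hochberg adjustment over all genes. The 7 comparisons were each line and the mean of the lines against ES cells and the 3 pairs of iPS lines, with an F test over the 4 lines. The script was tested on simulated data. Neighbouring genes, chromosomes and promoters came from RefSeq tables of GRCm38.p6.

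The members, the lists and the tests were chosen with earlier results of these data known. Members were given array by array where the mean was called, or where a single comparison was called with a log2 difference of at least 1 in size. Beside them Copg2 and H19, chosen after their values were seen, were given likewise. From the lists of imprint regulators and of other imprinted genes up to 6 each with the smallest adjusted p were named. The alternatives covered normalization, pseudocount, filter, probe set choice, variance trend, replicate block, line means, leaving out line 2 and leaving out each array.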

Additional observations from a re-analysis of the deposited data

Results flagged for a closer look

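Differences between iPS lines were the results that called for a second look: 27 differences between pairs of lines passed limma's test, in 17 of the 35 members. They were tested as differences of log2 signal, and the pairs share arrays. Over all genes, 23.3% were called in line 2 against line 1 and 31.2% in line 2 against line 3. In line 3 against line 1 it was 1.39%. The share of all genes with a call in at least 1 pair was not counted, so the 17 members have no background.

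In line 2 against line 1 there were 12 differences. Ascl2 (2.01), Igf2r (0.90), Sgce (0.81), Copg2 (0.49), Cd81 (0.35), Ube3a (0.33), Peg3 (0.30) and Phlda2 (0.29) were higher in line 2. Mest (-1.24), Mcts2 (-0.68), Grb10 (-0.30) and Plagl1 (-0.27) were lower in line 2. In line 2 against line 3 there were 13. Ascl2 (1.77), Sgce (1.73), Igf2r (1.24), Igf2 (0.79), Copg2 (0.54), Gnas (0.32), Cd81 (0.30) and Ube3a (0.28) were higher in line 2, and Mest (-1.48), Mcts2 (-0.76), Zdbf2 (-0.70) and Impact (-0.50) were lower. Slc22a18 was higher too, but both line 3 arrays were under the floor: the fitted 1.46 is no measured size, the bound is at least 2.10-fold, and averaging its probe sets ended the call (0.89, adjusted p 0.104). In line 3 against line 1, Impact (0.31) was higher and Igf2 (-0.73) was lower. Ascl2, Sgce, Igf2r, Copg2, Cd81 and Ube3a were higher and Mest and Mcts2 lower in line 2 than in both other iPS lines. With each array centred on its median this held for Ascl2, Igf2r, Copg2, Mest and Mcts2, and Sgce was called against line 3 alone.

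Some of these calls rest on single arrays. Copg2, Cd81, Ube3a and Impact were not followed by name when single arrays were left out, so this is open for their calls. Igf2 in line 3 against line 1 was lost without any of the 8 arrays, at adjusted p between 0.0517 and 0.245. In line 2 against line 1, Phlda2 was lost without line 1 replicate 2 (0.22, adjusted p 0.157) or line 2 replicate 1 (0.18, adjusted p 0.185). Peg3 was lost without line 1 replicate 2 (0.21, adjusted p 0.113) or line 2 replicate 2 (0.23, adjusted p 0.0918). Grb10 was lost without line 1 replicate 1 (-0.27, adjusted p 0.0616) or line 2 replicate 1 (-0.27, adjusted p 0.0572). Centring ended 5 calls in that pair, those of Phlda2 (0.17, adjusted p 0.251), Peg3 (0.18, adjusted p 0.194), Sgce (0.69, adjusted p 0.0670), Cd81 (0.23, adjusted p 0.0598) and Ube3a (0.20, adjusted p 0.145). It also ended, for line 2 against line 3, those of Gnas (0.18, adjusted p 0.148), Cd81 (0.17, adjusted p 0.154) and Ube3a (0.15, adjusted p 0.288). In line 3 against line 1 it ended both, Impact (0.32, adjusted p 0.115) and Igf2 (-0.72, adjusted p 0.0501).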

How the results depend on the processing

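The 8 members called in the mean of the iPS lines became 5 when the probe sets of a gene were averaged and 5 without a variance trend. With line means as samples 0 members and 0 of all genes were called by limma, while 4 members had an unadjusted p under 0.05. Leaving out 1 array gave 5 to 9, with 5 without ES replicate 2. Without line 2 there were 8, with Cd81 and Mest gained and Igf2 and Plagl1 lost. In line 1 the 8 became 1 without a variance trend and 5 to 8 without 1 array, the 5 arising without either ES array or without line 1 replicate 1. In line 3 the 7 became 0 without a variance trend and 4 to 8 without 1 array, the 4 arising without ES replicate 2 or line 3 replicate 1. The 15 of line 2 stayed between 13 and 15 without 1 array. Of line 2 against line 1, 12 became 7 without a variance trend and 8 to 12 without 1 array, and the 13 of line 2 against line 3 became 12 to 13. Of line 3 against line 1, the 2 became 0 under quantile normalization, centring, no filter, no variance trend or only the groups compared, 1 with averaged probe sets and 0 to 1 without 1 array. The F test's 17 became 11 with averaged probe sets and 15 to 18 without 1 array. The 9 probe sets became 3 without a variance trend and 5 to 10 without 1 array, 5 without ES replicate 2.

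In the mean without line 2, Mest turned to 0.43, and the uncalled Igf2r (-0.086), Ascl2 (-0.31) and Sgce (-0.099) turned too. The mean of Mest, at -0.02, ranged from -0.043 to 0.0019 without 1 array, turning without ES replicate 1 or line 3 replicate 2 (0.00096), and the uncalled mean of Slc22a18 turned to 0.19 with averaged probe sets. Plagl1 turned to 0.047 in the mean with its probe sets averaged, and without _x_at and _s_at sets to 0.27 in line 2 against ES cells and 0.37 in line 2 against line 1. The cause was not tested. For the 13 members with a call in the mean or a called difference of at least 1, 996 of 1115 alternative values kept direction and side of the threshold, 108 lost the call, 1 gained it and 10 turned. The 1115 values include the uncalled means of Igf2r, Slc22a18, Ascl2, Sgce and Mest, which counted as kept where they stayed uncalled in the same direction. They also include runs without an array from outside the comparison, in which the difference cannot move. The share kept is thus no measure of how firm the calls are. Deviations of same-numbered replicates correlated at -0.01 to 0.03, so the numbers do not pair the samples. With the replicate number as a block the count of line 3 against line 1 was 1, and the counts of the other comparisons did not change. Dim probe sets near the floor of 37.1 limit what can be seen of Snrpn, Slc22a18, Kcnq1, Usp29 and Airn.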

Other observations

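Genes that act on imprints were measured beside the members. Of 21 such regulators 19 were tested, and in the mean of the iPS lines 4 were higher and 3 lower, against 4.27% and 3.03% of all genes. Dppa3 (Stella), which shields maternal methylation from demethylation in the zygote, read 3284 and 2752 in line 1, 3365 and 3135 in line 2 and 2967 and 2308 in line 3, against 1513 and 1586 in ES cells. It was higher on every iPS array, by 0.92 (SE 0.09, adjusted p 5.9e-05). Dnmt3l, the cofactor of de novo methylation that sets germ line imprints, was lower in the mean (-0.39, SE 0.06, adjusted p 0.00126). By line it was -0.21 in line 1 (adjusted p 0.178), -1.25 in line 2 (adjusted p 1.8e-07) and 0.29 in line 3 (adjusted p 0.0376), so lines 2 and 3 were called in opposite directions. Zfp57 read 383 and 335 in line 1, 204 and 160.4 in line 2 and 304 and 306 in line 3, against 363 and 441 in ES cells. Its log2 difference was -0.54 (SE 0.13, adjusted p 0.0227) in the mean and -1.09 (SE 0.16, adjusted p 0.000269) in line 2, and it did not pass in line 1 (adjusted p 0.737) or line 3 (adjusted p 0.234). Tet2, a 5-methylcytosine oxidase, was lower in the mean (-0.37, SE 0.06, adjusted p 0.00177). The de novo methyltransferase gene Dnmt3b (0.35, SE 0.06, adjusted p 0.00369) and Smchd1 (0.27, SE 0.06, adjusted p 0.0191), a chromatin protein that silences some imprinted clusters, were higher.

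Of 37 further imprinted genes 26 were tested, and 2 were higher and 1 was lower in the mean, against 4.27% and 3.03% of all genes. Sfmbt2, a paternally expressed gene of the Polycomb group that the mouse placenta requires, read 1673 and 1691 in line 1, 1941 and 1932 in line 2 and 1379.7 and 1360.3 in line 3, against 975 and 942 in ES cells. No iPS array was near the ES arrays, and the difference was 0.77 (SE 0.06, adjusted p 8.32e-06). Ddc, an imprinted gene of the Grb10 cluster that codes for a decarboxylase for dopamine and serotonin, was lower (-0.58, SE 0.06, adjusted p 4.92e-05) and reached -1.12 (SE 0.07, adjusted p 3.56e-07) in line 2. Casd1, beside Sgce, was higher (0.36, SE 0.10, adjusted p 0.0425). Qpct (-0.57), Dhcr7 (0.38) and Gatm (1.05) did not pass the test.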
